A study of Mus musculus with 21 samples.

Results

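The genes described here are the 3 core subunits of the cohesin ring, Smc1a, Smc3 and Rad21, and the 2 STAG paralogs that bind the ring, Stag1 and Stag2. They were chosen by name, as 5 of the 30733 rows of a table of read counts per gene, and all 5 were found and passed the filter on low counts in every comparison. The table holds 21 RNA-seq libraries of mouse bone marrow, made from Stag2 knockout mice (KO) and wild-type mice (WT). Lineage-positive cells were first depleted from the marrow, and 3 populations were then sorted. These are LSK cells (stem and multipotent progenitors; 3 KO and 4 WT libraries), GMP (granulocyte and monocyte progenitors; 4 KO and 3 WT) and CFU-E (erythroid progenitors; 4 KO and 3 WT). No allele, deleted exon, deleter strain, age or treatment is given in the sources used here, and nothing there says that replicate libraries are separate animals. The p-values below therefore measure library-to-library spread, part of which may be technical.

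Cohesin is a ring-shaped complex that holds sister chromatids together and extrudes the loops of interphase chromatin. Smc1a and Smc3 are the long coiled-coil ATPases that form most of the ring, and Rad21, the kleisin subunit, closes it and is the part cut by separase at anaphase. Each ring carries either Stag1 or Stag2 on its kleisin, and the STAG subunit makes contacts with DNA, CTCF and regulators of loading and release. STAG2 is among the cohesin genes mutated in human myeloid neoplasms, and Stag2 is X-linked while Stag1 is autosomal. In the reference annotation, Smc1a and Stag2 lie on chromosome X, Smc3 on chromosome 19, Rad21 on chromosome 15 and Stag1 on chromosome 9.

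LSK libraries cover full transcripts and held 22813333 to 32196233 counts each. GMP and CFU-E libraries report the 3′ ends of transcripts and held 1250683 to 4401993 and 3654667 to 5550165 counts each. Levels are therefore not compared between LSK and the other populations, and LSK also differed in sex: Xist was at 154 to 320 CPM in LSK, at 0.528 to 5.92 CPM in GMP and at 1.85 to 9.98 CPM in CFU-E. CPM, counts relative to the library total, were scaled by TMM (trimmed mean of M values) factors within a population. Marker genes were checked against the labels. The sum of 8 LSK markers was 1856 to 2778 CPM in LSK, 240 to 556 CPM in GMP and 59.1 to 95.8 CPM in CFU-E. The sum of 8 GMP markers was 5687 to 18207 CPM in LSK, 18007 to 53308 CPM in GMP and 29.4 to 146 CPM in CFU-E, with GMP KO 4 the lowest GMP library. The LSK and GMP ranges overlap, but the kits differ, so the order of these libraries is not read. The sum of 8 CFU-E markers was 111 to 167 CPM in LSK, 158 to 231 CPM in GMP and 4342 to 5719 CPM in CFU-E. In bulk samples, fewer cells of a type and less RNA per cell cannot be told apart.

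Stag2, the targeted gene, fell in KO libraries of LSK and CFU-E by edgeR's test. In GMP edgeR did not call it and limma-voom did. In LSK it stood at 79.8, 67.7 and 69.1 CPM in KO, against 187, 171, 148 and 158 CPM in WT. The groups do not overlap, and the highest KO library lay well below the lowest WT library. Here and below, the share of all genes whose groups separate in this way was not counted. The log2 fold change, KO over WT, was -1.20 ± 0.128 (SE; adjusted p = 0.027 by edgeR's quasi-likelihood test), a level 0.435-fold that of WT. It ranked 5 by p among 17664 genes tested, of which 0.0793% passed an adjusted p of 0.05. The KO libraries still held 1782 to 2692 Stag2 counts each. Since the deleted exons are not given, whether these counts come from intact Stag2 transcripts is not known. The call in LSK did not survive the loss of any 1 KO library or of WT 3 or WT 4 (adjusted p = 0.0657 to 0.151), although the log2 fold change then stayed between -1.27 and -1.14.

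In CFU-E, Stag2 stood at 72.8, 41.2, 66.6 and 75.6 CPM in KO, against 137, 125 and 159 CPM in WT. Again the groups did not overlap, and KO 2 was the lowest library. The log2 fold change was -1.13 ± 0.205 (adjusted p = 0.0143 by edgeR), 0.455-fold, and 1.06% of the 10170 genes tested were called. CFU-E libraries lie on 2 flow cells named in the descriptions, A and B, which the test carries as a term. Flow cell A holds KO 1, WT 1 and WT 2, and flow cell B holds KO 2, KO 3, KO 4 and WT 3. Within flow cell A the log2 fold change was -0.86 (adjusted p = 0.0518 by edgeR) and within flow cell B -1.39 (adjusted p = 0.0286), each with a lone library on one side that is assumed to vary like the others. Leaving out WT 3 leaves flow cell B with no WT, so that value, -0.85 (adjusted p = 0.703), rests on the same libraries as flow cell A and is not a separate check.

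In GMP, Stag2 stood at 94.0, 98.3, 80.5 and 149.5 CPM in KO, against 199.5, 142.5 and 97.9 CPM in WT. These values overlap: KO 4 lay above WT 2 and WT 3, and WT 3 lay below KO 2. The log2 fold change was -0.47 ± 0.271 with a 95% interval of -1.05 to 0.10 (adjusted p = 0.36 by edgeR), where 1.45% of 9969 genes were called. With limma-voom and library weights Stag2 was called in GMP, at -0.63 (adjusted p = 0.0183), in a fit that called 12.7% of the same genes. GMP and CFU-E libraries both read 3′ ends, and since the sources used here do not place the deletion, whether these counts lie in the deleted part is not known for either population. The difference in KO effect, LSK minus GMP, was -0.66 ± 0.323 (adjusted p = 0.477; edgeR called 0.00% of 16288 genes there, with 1732 at an unadjusted p under 0.05, and DESeq2 called 62). CFU-E minus GMP gave -0.57 ± 0.364 (adjusted p = 0.483, 0.445% of genes called) and LSK minus CFU-E -0.11 ± 0.245 (adjusted p = 1, 0.0425% called), so no pair of populations was shown to differ.

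**Figure D1:**
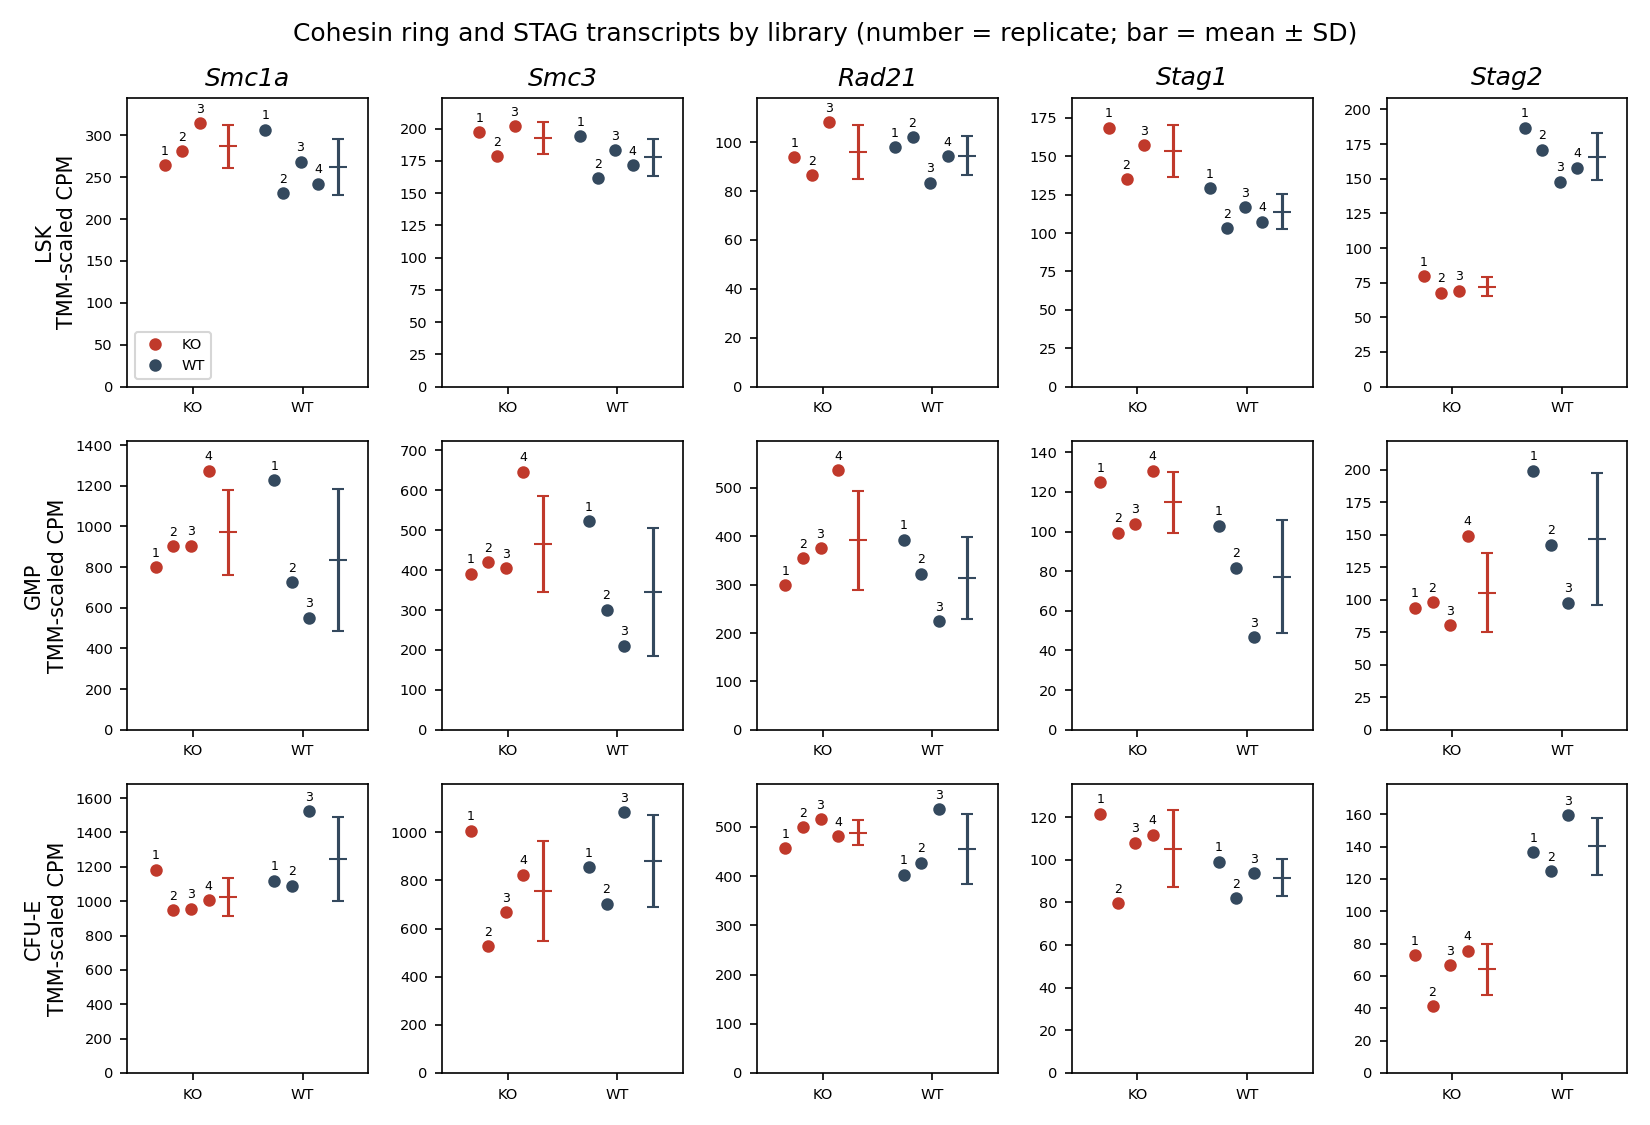
TMM-scaled CPM (vertical axes, each starting at 0) of the 5 genes (columns) in LSK, GMP and CFU-E (rows); each point is 1 library, numbered by replicate, KO in red and WT in dark blue, with mean ± SD beside it. Stag2 separates KO from WT in LSK and CFU-E, while in GMP it lies at 80.5 to 149.5 CPM in KO and at 97.9 to 199.5 CPM in WT.

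The GMP libraries varied in the whole ring, not in Stag2 alone. Their depth also went with genotype, at 1250683 to 3471881 counts in KO and 3732769 to 4401993 in WT. Smc1a stood at 801, 904, 905 and 1275 CPM in GMP KO, against 1227, 724 and 551 CPM in GMP WT. KO 4 was the highest of the 7 GMP libraries for Smc1a, Smc3, Rad21 and Stag1, and WT 3 was the lowest for the same 4 genes. Smc3 stood at 391, 421, 404 and 647 CPM in KO, against 523, 301 and 211 CPM in WT. Rad21 stood at 299, 355, 376 and 537 CPM in KO, against 392.5, 323 and 224 CPM in WT. For all 3 core subunits the groups overlap. The log2 fold changes in GMP were 0.22 ± 0.274 for Smc1a, 0.43 ± 0.292 for Smc3 and 0.32 ± 0.255 for Rad21. None was called (adjusted p = 0.686, 0.434 and 0.505 by edgeR). Other measures moved with these libraries: the sum of 8 GMP markers was 18007 CPM in KO 4 and 53308 CPM in WT 3, and the sum of 10 G2/M genes was 3057 CPM in KO 4, 3260 CPM in WT 1 and 2325 CPM in WT 3. The sum of 10 S phase genes ran the other way, with KO 4 the lowest of the 7 GMP libraries at 1903 CPM and WT 3 the highest at 2567 CPM. Their part in the spread of the ring genes was not tested.

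Taken as a percent of the summed counts of the 5 genes, which needs no scaling between libraries, Stag2 separated KO from WT in GMP too. It made up 5.50%, 5.24%, 4.31% and 5.46% of these counts in GMP KO, against 8.16%, 9.06% and 8.66% in GMP WT. The highest KO library thus lay below the lowest WT library, although the same libraries overlap in Stag2 CPM. In LSK the percent was 9.93, 9.04 and 8.12 in KO, against 20.4, 22.3, 18.5 and 20.4 in WT. In CFU-E it was 2.56, 1.97, 2.88 and 3.03 in KO, against 5.23, 5.14 and 4.69 in WT. The mean differences, KO minus WT, were -11.4 percentage points (LSK), -3.50 points (GMP) and -2.41 points (CFU-E). On the same measure, Stag1 made up 18.03% to 20.97% in LSK KO and 13.4% to 14.6% in LSK WT, and 3.81% to 4.66% in CFU-E KO and 2.76% to 3.79% in CFU-E WT, with no overlap. In GMP it overlapped, at 4.77% to 7.32% in KO and 4.13% to 5.20% in WT. Smc3 made up 23.7% to 24.5% in LSK KO and 20.99% to 22.9% in LSK WT, and 21.6% to 23.6% in GMP KO and 18.6% to 21.4% in GMP WT, again with no overlap, and overlapped in CFU-E, at 25.1% to 35.4% in KO and 29.0% to 32.7% in WT. Smc1a and Rad21 overlapped in LSK, GMP and CFU-E. Percents of a fixed sum are tied to each other, so a lower Stag2 percent raises the others. The measure was chosen after the spread in GMP had been seen and is given without a test.

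Stag1, the paralog that can take the place of Stag2 on the ring, stood higher in KO libraries on average in each population, and edgeR called it in none of them. In LSK it stood at 168.5, 135.1 and 157.2 CPM in KO, against 129.1, 103.0, 116.8 and 107.3 CPM in WT. No KO library was as low as any WT library. The log2 fold change was 0.43 ± 0.128 (unadjusted p = 0.00884, adjusted p = 0.388 by edgeR), with a 95% interval of 0.14 to 0.72. In GMP it stood at 125, 99.4, 104 and 131 CPM in KO, against 103, 81.8 and 46.7 CPM in WT. Here WT 1 lay above KO 2, and the log2 fold change was 0.57 ± 0.26 (adjusted p = 0.266 by edgeR). In CFU-E it stood at 122, 79.7, 108 and 112 CPM in KO, against 99.1, 82.1 and 93.6 CPM in WT. KO 2 was the lowest of the 7 CFU-E libraries and the other KO libraries were the highest, with a log2 fold change of 0.25 ± 0.171 (adjusted p = 0.70 by edgeR). The interval of the Stag1 difference, -0.12 to 0.62 in CFU-E, does not show that KO and WT were alike.

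A single KO effect was also fitted to all 21 libraries, with population and flow cell as terms. Stag2 fell, with a log2 fold change of -0.99 ± 0.148 (adjusted p = 0.000651 by edgeR), ranking 19 by p among 14056 genes, of which 1.37% were called. Stag1 had a log2 fold change of 0.37 ± 0.114 (unadjusted p = 0.00338, adjusted p = 0.13 by edgeR), ranking 366. Its call depends on the tool, since DESeq2 gave 0.39 (adjusted p = 0.0287, with 2.47% of genes called) and limma-voom 0.34 (adjusted p = 0.0455, with 2.78% called). For the core subunits the common effect was near 0: -0.02 ± 0.128 for Smc1a, 0.07 ± 0.149 for Smc3 and 0.07 ± 0.111 for Rad21 (adjusted p = 0.98, 0.922 and 0.883 by edgeR). Their 95% intervals were -0.29 to 0.24, -0.24 to 0.38 and -0.16 to 0.30. Single populations had values of both signs: Smc1a stood at 0.22 in GMP and -0.30 in CFU-E, and Smc3 at 0.43 and -0.20. The differences in KO effect, CFU-E minus GMP, were -0.44 ± 0.342 for Smc1a and -0.55 ± 0.393 for Smc3. Neither was called (adjusted p = 0.57 and 0.534 by edgeR, with 0.445% of genes called).

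**Figure D2:**
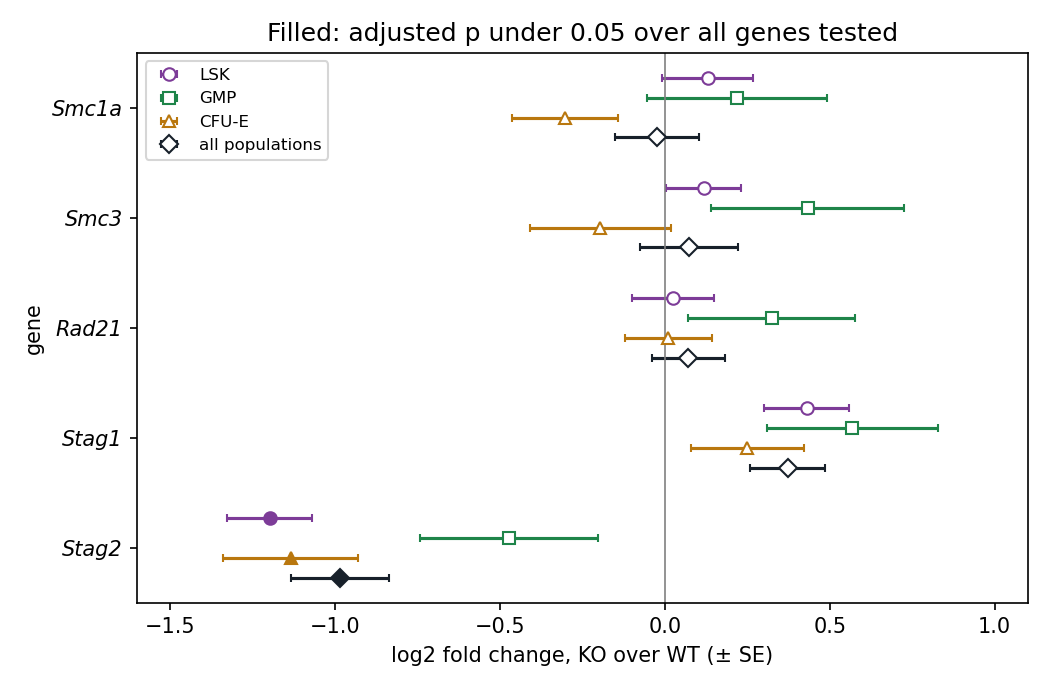
Log2 fold change of KO over WT (horizontal axis) ± SE for each gene (vertical axis) in LSK, GMP, CFU-E and in the fit over all populations; filled symbols have an adjusted p under 0.05 in edgeR. Only the Stag2 values of LSK (-1.20), CFU-E (-1.13) and all populations (-0.99) are filled.

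In LSK and CFU-E the core subunits overlapped between KO and WT. In LSK, Smc1a stood at 264, 281 and 315 CPM in KO, against 307, 231, 269 and 242 CPM in WT (log2 fold change 0.13 ± 0.139). Smc3 stood at 197, 179 and 202 CPM in KO, against 194, 161, 183 and 172 CPM in WT (0.12 ± 0.115). Rad21 stood at 93.9, 86.4 and 108 CPM in KO, against 97.96, 102, 83.5 and 94.2 CPM in WT (0.03 ± 0.125, with a sign that turns with upper-quartile scaling, at -0.03). None was called, with adjusted p of 0.889, 0.886 and 0.966 by edgeR.

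In CFU-E, Smc1a stood at 1183, 946, 956 and 1004 CPM in KO, against 1118, 1090 and 1525 CPM in WT. WT 3 was the highest library for Smc1a, Smc3, Rad21 and Stag2. Smc3 stood at 1006, 526, 668 and 824 CPM in KO, against 854, 704 and 1083 CPM in WT. Rad21 stood at 457, 500, 516 and 481 CPM in KO, against 403, 427 and 536 CPM in WT. The log2 fold changes were -0.30 ± 0.161, -0.20 ± 0.214 and 0.01 ± 0.132 (adjusted p = 0.598, 0.843 and 0.993 by edgeR). Without WT 3 the Smc1a and Smc3 values turned to 0.10 and 0.37, neither called. That contrast rests on KO 1 against WT 1 and WT 2, as does the one within flow cell A (0.08 and 0.36).

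Divided by the length of each gene's annotated exons, the LSK levels can be set roughly beside each other. Over the union of a gene's annotated exons (5769 bases for Smc1a, 5541 for Smc3, 4232 for Rad21, 11781 for Stag1 and 8273 for Stag2), LSK KO libraries averaged 49.7 ± 4.46 CPM per kb for Smc1a, 34.8 ± 2.22 for Smc3, 22.7 ± 2.61 for Rad21, 13.04 ± 1.45 for Stag1 and 8.73 ± 0.798 for Stag2 (SD, n = 3). LSK WT libraries averaged 45.4 ± 5.84 CPM per kb for Smc1a, 32.0 ± 2.54 for Smc3, 22.3 ± 1.89 for Rad21, 20.05 ± 2.04 for Stag2 and 9.68 ± 0.982 for Stag1 (SD, n = 4). The order of the ring subunits was thus the same in KO and WT, while the STAG paralogs traded places. In WT, Rad21 and Stag2 are neighbours in this order whose libraries overlap, at 19.7 to 24.1 and 17.9 to 22.6 CPM per kb. These lengths come from an annotation of a later genome build and count every annotated exon, so the levels between genes are approximate. The Stag1 and Stag2 coding transcripts compared below are nearly equal in length, at 6186 and 6171 bases, so the STAG levels per kb depend on which length is used.

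The Stag1 share of Stag1 plus Stag2 counts asks how the STAG transcripts divide between the paralogs within a library. How well reads of the paralogs can be told apart depends on the sequence they share. For each gene, only the transcript with the longest coding part in the GENCODE M21 set (GRCm38) was compared. Those of Stag1 (6186 bases) and Stag2 (6171 bases) share no run of 25 bases. The last 500 bases of these transcripts share no run longer than 9. Whether the 3′ tags of GMP and CFU-E fall there was not checked. The longest run that the transcripts have in common is 23 bases, in the coding part of both. It starts at coding base 1147 of Stag1 and 1138 of Stag2. It is printed to show how short the identical stretch is.
Stag1 and Stag2, shared coding run, sense strand: cttgacaaagaatatgatgttgc

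In LSK the Stag1 share was 67.9%, 66.6% and 69.5% in KO, against 40.9%, 37.6%, 44.1% and 40.5% in WT. Each rests on 5336 to 9700 STAG counts, and the exact 95% binomial interval of KO 1 is 66.9% to 68.9%. In GMP it was 57.1%, 50.3%, 56.4% and 46.6% in KO, against 34.1%, 36.5% and 32.3% in WT. GMP KO 1, the shallowest library, has 296 STAG counts and an interval of 51.2% to 62.8%; such intervals cover counting error only. In CFU-E the share was 62.6%, 65.9%, 61.8% and 59.6% in KO, against 42.0%, 39.7% and 37.0% in WT. In every population each KO library lay above each WT library, GMP included, and Stag1 outnumbered Stag2 in all KO libraries but GMP KO 4 and in no WT library.

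The share averaged 68.0 ± 1.43% in LSK KO (SD, n = 3) and 40.8 ± 2.68% in LSK WT (n = 4), a difference of 27.2 percentage points. GMP KO averaged 52.6 ± 5.01% (n = 4) and GMP WT 34.3 ± 2.10% (n = 3), a difference of 18.3 points. CFU-E KO averaged 62.5 ± 2.62% (n = 4) and CFU-E WT 39.6 ± 2.52% (n = 3), a difference of 22.9 points. Within a population the two-sided exact permutation test gave p = 0.0571 each time, the smallest that 35 assignments allow (0.0686 adjusted over 6 tests). With labels permuted within populations and all 3 populations in 1 test, the mean difference was 22.8 points. The exact permutation p was 4.66e-05, the smallest that 42875 assignments can give. This test was added after the values had been seen. Stag2, the targeted gene, is part of the sum, so a fall in Stag2 alone raises the share. A higher share thus does not show that Stag1 rose. Within flow cell A, with 1 KO library, the CFU-E difference was 21.7 points, and within flow cell B, with 1 WT library, 25.5 points. Dividing the LSK counts by exon length moved the level, to 59.9 ± 1.58% in KO and 32.6 ± 2.44% in WT, and left a difference of 27.3 points.

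**Figure D3:**
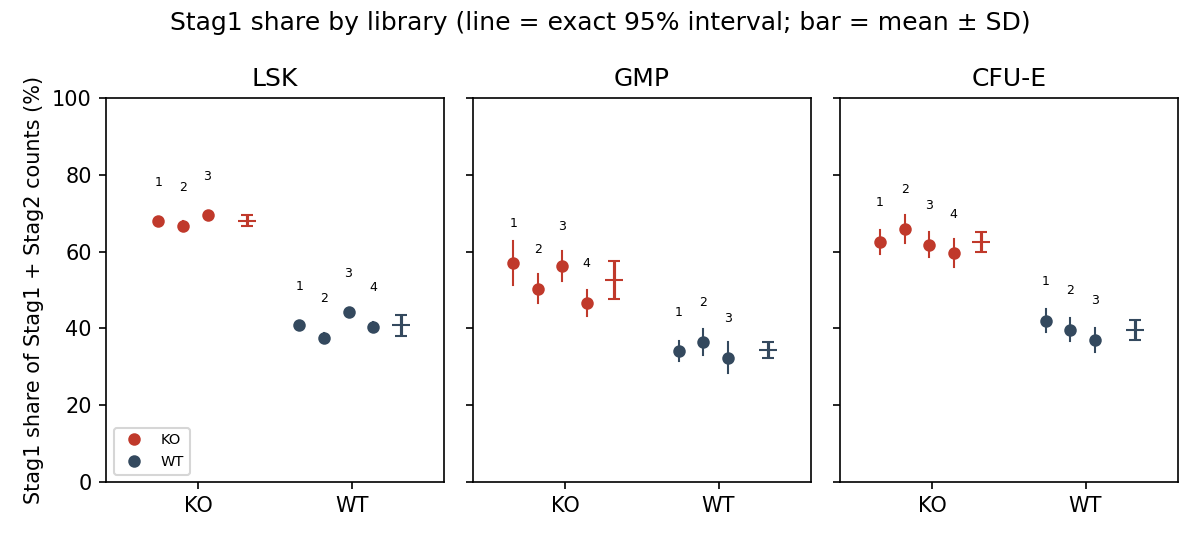
Stag1 share of Stag1 plus Stag2 counts (vertical axis, percent) for each library, numbered by replicate, in KO (red) and WT (dark blue); thin lines are exact 95% binomial intervals and the bar is the mean ± SD. KO libraries lie at 46.6% to 69.5% and WT libraries at 32.3% to 44.1%, with no overlap in any population.

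The CFU-E share lay above the GMP share in both genotypes. CFU-E KO libraries had 59.6% to 65.9% and GMP KO libraries 46.6% to 57.1%, while CFU-E WT had 37.0% to 42.0% and GMP WT 32.3% to 36.5%. Neither pair overlaps, and the kit is the same. All GMP libraries lie on flow cell A, however, while CFU-E KO 2, KO 3, KO 4 and WT 3 lie on flow cell B. The CFU-E libraries of flow cell A had 62.6% (KO 1), 42.0% (WT 1) and 39.7% (WT 2). The difference was not tested.

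The summed level of both paralogs was lower in KO in LSK and CFU-E. Stag1 plus Stag2 CPM was 248, 203 and 226 in LSK KO, against 316, 274, 265 and 265 in LSK WT, a ratio of geometric means of 0.806. In CFU-E it was 194, 121, 175 and 187 in KO, against 236, 207 and 253 in WT, a ratio of 0.721. Neither population has overlapping groups, and the two-sided exact permutation p was 0.0571 in each, the smallest possible (0.0686 adjusted). In GMP the sum was 219, 198, 185 and 280 CPM in KO, against 303, 224 and 145 CPM in WT, with a ratio of 1.02 and an exact permutation p of 1. The sign in GMP changed without KO 4 or WT 3. Over all populations together the mean log2 difference was -0.25 (exact permutation p = 0.0604). The same exact permutation test gave -0.22 without LSK (p = 0.247), -0.14 without CFU-E (p = 0.384) and -0.39 without GMP (p = 0.00163, the smallest that the assignments then allow). In LSK KO, Stag2 fell by 93.7 CPM on average, while Stag1 averaged 39.6 CPM above WT.

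**Figure D4:**
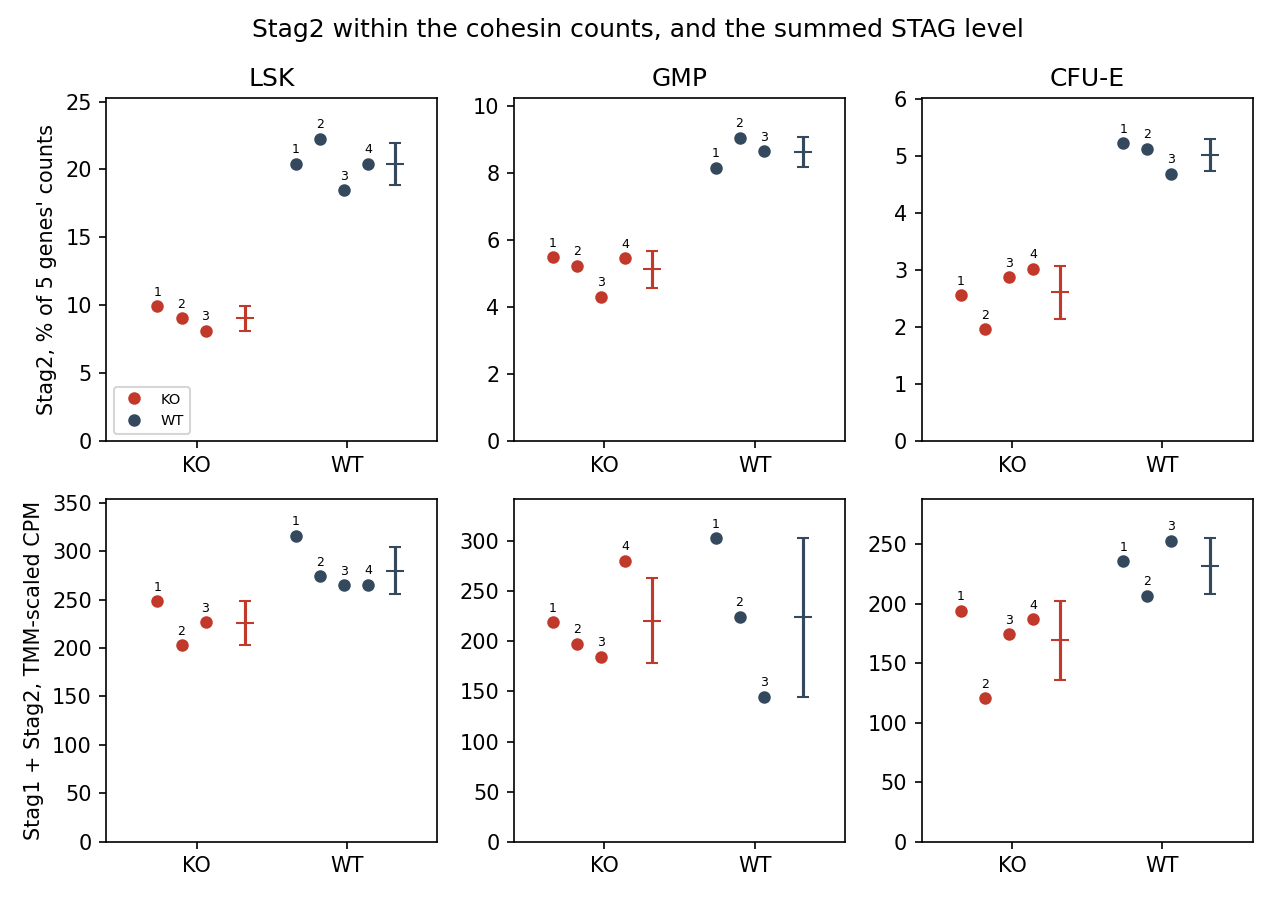
Upper row, Stag2 as a percent of the summed counts of the 5 genes; lower row, summed TMM-scaled CPM of Stag1 and Stag2; 1 point per library, numbered by replicate, KO in red and WT in dark blue, with mean ± SD. The percent separates KO from WT in all populations (GMP, 4.31% to 5.50% in KO and 8.16% to 9.06% in WT), and the sum overlaps in GMP.

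CFU-E and GMP share a library kit, so they were compared gene by gene, in a fit that scaled both together with flow cell as a term. The CPM given here were scaled within each population, so the comparison rests on the log2 fold changes. These can differ: WT Stag1 averaged 91.6 CPM in CFU-E and 77.2 CPM in GMP, beside a log2 fold change of -0.06. In WT, Smc3 was higher in CFU-E, at 854, 704 and 1083 CPM, than in GMP, at 523, 301 and 211 CPM (log2 fold change 1.05 ± 0.315, adjusted p = 0.00878 by edgeR). It was the only one of the 5 genes called there, in a comparison where 48.6% of 11006 genes were called. In KO, Stag2 was lower in CFU-E, at 41.2 to 75.6 CPM, than in GMP, at 80.5 to 149.5 CPM (log2 fold change -0.99 ± 0.308, adjusted p = 0.0116), and it was the only one called, against 49.0% of all genes. In WT the Stag2 difference was -0.41 ± 0.283 (adjusted p = 0.24). Stag1 differed by -0.06 ± 0.251 in WT and -0.29 ± 0.269 in KO, neither called (adjusted p = 0.873 and 0.388 by edgeR).

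Across libraries, with each population centred on its own mean, Smc1a and Smc3 moved most closely together (r = 0.92 over 21 libraries; 0.98 within GMP, 0.84 within LSK and 0.83 within CFU-E). These are descriptions, since the libraries share populations, genotypes and depth. Smc3 was the fourth closest of 4615 genes to Smc1a. Smc1a and Rad21 had r = 0.72, which was 0.93 in GMP but 0.17 in LSK and 0.14 in CFU-E. Stag1 and Stag2 had r = -0.16 over all libraries, and -0.78 in LSK. The genes whose pattern was closest to Smc1a were Ncapg2 (r = 0.93), a condensin II subunit, Sbno1 and Cep135, a centriole protein. Closest to Smc3 were Pcm1 (r = 0.97), a centriolar satellite protein, Cenpe, a kinetochore motor, and Rif1, a regulator of replication timing. Closest to Rad21 were Spc25 (r = 0.90), of the Ndc80 kinetochore complex, Efha1 and Mphosph6. Closest to Stag1 were the transcription factor Atf1 (r = 0.91), the kinase Tlk1 and the helicase Wrn. Closest to Stag2 were Pik3cb (r = 0.82), a catalytic subunit of PI3K, Samsn1 and Eps15, an endocytic adaptor.

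Promoter sequences from RefSeq (GRCm38.p6, 250 bases before to 50 after the start of transcription) were matched for Smc1a, Smc3 and Stag1. They are shown because Smc1a and Smc3 varied together, and Stag1 is the paralog that stood higher in KO. Capitals mark exact matches, on either strand, to letters known from motifs of E2F (TTTCCCGC), the CCAAT box (CCAAT), ETS factors (CCGGAA), YY1 (AAGATGGCG) and the GC box (GGGCGG). None of these matches overlaps another.
Smc1a, chrX:152016178-152016477, plus strand: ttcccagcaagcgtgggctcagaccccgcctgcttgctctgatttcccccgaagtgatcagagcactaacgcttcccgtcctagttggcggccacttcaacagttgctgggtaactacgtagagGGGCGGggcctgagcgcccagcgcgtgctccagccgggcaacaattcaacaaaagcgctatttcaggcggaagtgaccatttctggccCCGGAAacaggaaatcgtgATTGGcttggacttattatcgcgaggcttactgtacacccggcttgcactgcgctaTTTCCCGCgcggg
Smc3, chr19:53600146-53600445, plus strand: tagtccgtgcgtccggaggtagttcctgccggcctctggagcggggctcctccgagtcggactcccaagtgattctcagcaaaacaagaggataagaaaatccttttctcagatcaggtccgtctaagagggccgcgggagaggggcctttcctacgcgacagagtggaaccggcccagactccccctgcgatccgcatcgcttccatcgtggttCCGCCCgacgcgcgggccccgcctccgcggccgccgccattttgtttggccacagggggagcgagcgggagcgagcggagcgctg
Stag1, chr9:100643198-100643497, plus strand: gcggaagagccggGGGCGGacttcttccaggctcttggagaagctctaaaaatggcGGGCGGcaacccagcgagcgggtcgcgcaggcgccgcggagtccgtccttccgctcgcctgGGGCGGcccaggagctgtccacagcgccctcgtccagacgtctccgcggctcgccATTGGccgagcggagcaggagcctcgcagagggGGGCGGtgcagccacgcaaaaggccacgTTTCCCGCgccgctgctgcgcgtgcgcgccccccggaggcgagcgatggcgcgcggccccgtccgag
Smc1a and Stag1 each hold the E2F letters once, which 1.07% of the 32851 promoters in the table do, at base 38 and base -17 relative to the start site. Both also hold 1 CCAAT box (37.4% of promoters). Smc1a has 1 ETS match (14.9% of promoters), Stag1 has 4 GC boxes and Smc1a and Smc3 have 1 each (35.7% of promoters have any). No promoter of the 3 has the YY1 letters (1.40% of promoters). A match is a string of letters, not a bound site, and these data hold no measure of binding.

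Genes that load, release, protect or cut cohesin were called in no KO against WT comparison, where 0.0793% (LSK), 1.45% (GMP), 1.06% (CFU-E) and 1.37% (all libraries) of all genes were called, so that 0 of 13 is near the background. Of 13 regulators tested, edgeR called 0 in LSK (with 1 at an unadjusted p under 0.05), 0 in GMP (with 1), 0 in CFU-E (with 1) and 0 in the fit over all libraries (with 2). Over all genes, 1392 of 17664, 1789 of 9969, 999 of 10170 and 1600 of 14056 had such a p. Their median log2 fold change was 0.10 (LSK), 0.06 (GMP) and -0.03 (CFU-E), beside medians of 0.00, 0.02 and 0.00 over all genes tested. In LSK the smallest p was that of Pds5b, which regulates release of cohesin, at 133 ± 18.0 CPM in KO (SD, n = 3) and 97.1 ± 22.4 CPM in WT (n = 4; log2 fold change 0.45 ± 0.187, adjusted p = 0.605 by edgeR). In GMP it was that of Esco1, an acetyltransferase of Smc3, at 27.8 to 56.6 CPM in KO and 12.7 to 23.3 CPM in WT, which do not overlap (0.99 ± 0.306, adjusted p = 0.124 by edgeR). In CFU-E it was that of Wapal, the releasing factor, at 231 to 355 CPM in KO and 353 to 429 CPM in WT (-0.36 ± 0.161, adjusted p = 0.466 by edgeR). Next in order were Pds5a in LSK (0.32) and CFU-E (-0.37) and Pttg1, the separase inhibitor, in GMP (-0.51). Over all libraries they were Pttg1 (-0.33) and Pds5b (0.25), and for the differences in KO effect Wapal (-0.66) and Cdca5 (0.57) for CFU-E minus GMP, Pds5a (0.64) and Wapal (0.40) for LSK minus CFU-E, and Esco1 (-0.93) and Cdca5 (0.63) for LSK minus GMP, none of them called. Between WT populations, 4 of the 13 were higher in CFU-E than in GMP, where 23.2% of all genes tested were: Espl1 (separase, 1.005 ± 0.234), Wapal (0.91 ± 0.251), Sgol1 (0.76 ± 0.222) and Mau2 (0.67 ± 0.243). Between KO populations, where 25.2% of all genes were higher and 23.8% lower in CFU-E, Espl1 (1.40), Sgol1 (0.82) and Mau2 (0.66) were higher and Esco1 (-1.27) lower in CFU-E than in GMP.

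Of 11 condensin and SMC relatives, edgeR called 0 in LSK, GMP, CFU-E and the fit over all libraries (0, 1, 0 and 0 at an unadjusted p under 0.05), again near the shares of all genes called in these comparisons. The smallest p in GMP was that of Smchd1, an SMC protein of X inactivation, at 138 to 370 CPM in KO and 67.8 to 166 CPM in WT (log2 fold change 0.89 ± 0.362, adjusted p = 0.22 by edgeR), followed by Smc4 (0.57). In LSK the smallest were Ncapd3 (0.22) and Smchd1 (0.25), in CFU-E Smc5 (-0.38) and Ncapg2 (-0.32), and over all libraries Smchd1 (0.27) and Smc6 (-0.10). For the differences in KO effect they were Smchd1 (-1.04) and Smc5 (-0.74) for CFU-E minus GMP, Ncapg2 (0.46) and Smc5 (0.35) for LSK minus CFU-E, and Smc4 (-0.55) and Ncapd2 (0.56) for LSK minus GMP, none of them called. The condensin subunits Ncaph and Smc2 were higher in WT CFU-E than in WT GMP (1.05 and 0.73, adjusted p = 0.0127 and 0.0326 by edgeR). These 2 of 11 compare with 23.2% of all genes called higher in CFU-E there. In KO, Ncaph (1.27) and Ncapd2 (0.54) were higher and Smc4 (-0.86) lower in CFU-E than in GMP. Of all genes, 25.2% were called higher and 23.8% lower there, so these counts are not above the background. Of the 4 meiotic subunits, Stag3, the third STAG paralog, is named after its values were seen. It stood at 5.19 to 9.58 CPM in LSK KO and 1.39 to 4.02 CPM in LSK WT, with no overlap (1.14 ± 0.384, adjusted p = 0.473 by edgeR), and at 34 to 252 counts a library. In GMP it averaged 4.33 ± 1.11 CPM in KO (SD, n = 4) and 5.73 ± 1.47 CPM in WT (n = 3), with a log2 fold change of -0.40, and in CFU-E 3.58 ± 2.14 CPM in KO (n = 4) and 2.59 ± 1.69 CPM in WT (n = 3), with 0.20, neither called.

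Genes beside Stag2 on chromosome X were followed by name, in the order Gria3, Thoc2, Xiap, Stag2, Sh2d1a and Odz1 of the RefSeq table (GRCm38.p6, where Odz1 is Tenm1). Gria3, a glutamate receptor subunit, fell in LSK KO to 11.1, 12.7 and 10.9 CPM, against 31.9, 36.0, 35.2 and 37.3 CPM in WT (log2 fold change -1.604 ± 0.14, adjusted p = 0.00851 by edgeR). The call did not survive the replicate block (adjusted p = 0.159) or the loss of any 1 KO library or of WT 3 (adjusted p = 0.0511 to 0.0908), with the log2 fold change between -1.66 and -1.56. In GMP it stood at 33.3, 29.7, 30.7 and 54.2 CPM in KO, against 94.4, 58.1 and 41.2 CPM in WT (-0.80 ± 0.296, adjusted p = 0.188). KO 4 lay above WT 3, as it did for Stag2. In CFU-E it had 0 to 4 counts a library. Over all libraries it fell by 1.17 ± 0.242 (adjusted p = 0.0123 by edgeR), a call lost without LSK (-0.70) and without GMP (-1.30). Thoc2 and Xiap, which lie between Gria3 and Stag2, were called in no population between KO and WT: in LSK, Thoc2 stood at 144 to 175 CPM in KO and 143 to 164 CPM in WT (0.01 ± 0.118), and Xiap at 13.8 to 16.0 CPM in KO and 12.5 to 15.9 CPM in WT (0.07 ± 0.166). Sh2d1a (-0.59) and Odz1 (-0.21) passed the filter only in LSK, at 6 to 41 counts a library, and were not called.

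Markers of other cells and of the cell cycle were summed in the same libraries, and some of these sums separate KO from WT. The share of all genes, or of such sums, that separate was not counted. Sums of monocyte, dendritic cell and T and NK cell markers were also made and are not given. In GMP, 8 late neutrophil markers summed to 73298 to 120613 CPM in KO and 154161 to 204691 CPM in WT. In LSK the late neutrophil sum overlapped, at 673 to 1617 CPM in KO and 337 to 8073 CPM in WT. LSK WT was uneven there, with WT 2 at 8073 CPM, WT 4 at 4355 CPM, WT 3 at 1397 CPM and WT 1 at 337 CPM. In CFU-E, 8 megakaryocyte markers summed to 492 to 1057 CPM in KO and 139 to 302 CPM in WT. The same sum was 432 to 641 CPM in LSK KO and 322 to 408 CPM in LSK WT, and 102 to 125 CPM in GMP KO and 73.2 to 99.3 CPM in GMP WT, with no overlap in any of the 3 populations. Single markers were less alike. In CFU-E 8 of 8 had a positive log2 fold change (median 1.67) and edgeR called 4, where 1.06% of 10170 genes were called. In LSK 4 of 8 had a positive value (median 0.12) and 0 were called, beside 0.0793% of all genes. There 5 of the 8 had an unadjusted p under 0.05, as did 1392 of 17664 genes. In GMP 4 of the 4 tested had a positive value (median 0.15) and 0 were called, beside 1.45% of all genes. There 1 had an unadjusted p under 0.05, as did 1789 of 9969 genes. The 8 CFU-E markers themselves summed to 5022 to 5719 CPM in CFU-E KO and 4342 to 4839 CPM in CFU-E WT, also with no overlap. Yet 4 of 8 had a positive log2 fold change (median -0.0608), and the 1 that edgeR called was lower in KO. An unadjusted p under 0.05 was found for 4 of the 8, and for 999 of 10170 genes. In LSK, 7 mature B cell markers summed to 70.0 to 131 CPM in KO and 113 to 320 CPM in WT. No gene of these lists was at 0 throughout a group there. The sum of 10 S phase genes was 1903 to 2185 CPM in GMP KO and 2202 to 2567 in GMP WT, and 3442 to 3785 CPM in CFU-E KO and 3864 to 4076 in CFU-E WT, with no overlap in either. In LSK it overlapped, at 4087 to 4765 CPM in KO and 3103 to 4606 CPM in WT. The part of these lists in the STAG values was not tested.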

How the data were processed

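RNA-seq counts were used as deposited: whole-number read counts per gene for 21 libraries, made by the authors with STAR 2.4, HTSeq 0.6.1 and DESeq2 on mm9, per the submitters' processing notes. No source used here gives the annotation or the strand setting. SMARTer was used for LSK, and 3′ sequencing with SMART-Seq2 for GMP and CFU-E, per the labels' protocols. Groups and flow cells come from the labels. The 5 genes and all gene lists were chosen with earlier results of these data known.

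Counts were filtered with filterByExpr (minimum count 10, minimum total 15), scaled by TMM and tested with edgeR 4.0.16 (quasi-likelihood F test, R 4.3.3), with Benjamini-Hochberg adjustment over all genes tested and a threshold of 0.05. Displayed CPM divide by the total count times the TMM factor. The SE was taken as the log2 fold change over the root of F. DESeq2 1.42.0 and limma 3.58.1 (voom) were alternatives, and edgeR was tested on simulated data. Shares and STAG sums were compared with exact permutation tests. Replicate pairs within a group differed beyond sampling noise (chi-square per degree of freedom at least 4.03). Regulators and condensin genes were named when called in a comparison, otherwise by the 2 smallest p of that comparison. Alike genes have the highest Pearson r of log2(CPM + 1), among 4616 genes with at least 20 CPM on average in each population. Transcripts and exon lengths are from GENCODE M21 (GRCm38) and promoters from RefSeq (GRCm38.p6).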

Additional observations from a re-analysis of the deposited data

Results flagged for a closer look

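Smc3 in GMP KO 4, at 646.6 CPM, stands apart from the other 3 GMP KO libraries, at 391 to 421 CPM: its gap to the nearest of them is 0.883 of the range of the group, above Dixon's 95% critical value for 4 samples. It was the only such value in 36 sets of 4 libraries, of which chance flags about 1 in 20.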

How the results depend on the processing

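The direction of Stag2 and of Stag1 held under all alternatives run in LSK, GMP, CFU-E and over all libraries, and so did the Stag1 share. The Stag2 call was lost in LSK with the replicate block (-1.22, adjusted p = 0.22), without WT 2 and WT 4 together (-1.20, chosen after seeing the data) and for some libraries left out (range -1.27 to -1.14), and in CFU-E with the replicate block (-1.08, adjusted p = 0.0804), within flow cell A (-0.86, 1 KO library) and without WT 3, which rests on the same libraries (range over libraries left out -1.40 to -0.85). It was gained in GMP with limma-voom (-0.63). Stag1 over all libraries was gained with DESeq2 (0.39) and limma-voom (0.34). Uncalled values changed sign as follows: Rad21 in LSK with upper quartile (-0.0318) and the stricter filter (-0.0085), and over libraries left out (-0.0621 to 0.11); Smc1a in GMP over libraries left out (-0.0131 to 0.60); in CFU-E, libraries left out gave Smc1a -0.66 to 0.10, Smc3 -0.69 to 0.37 and Rad21 -0.11 to 0.13, flow cell A gave Smc1a 0.0839 and Smc3 0.36, and flow cell B Rad21 -0.11; over all libraries, Smc3 without GMP (-0.0235) and Smc1a without CFU-E (0.13). The STAG sum in GMP ranged over libraries left out from -0.26 to 0.27, and over all populations it was -0.22 without LSK, -0.39 without GMP and -0.14 without CFU-E. The cause of these changes was not tested. Same-numbered KO and WT libraries did not deviate together (r from -0.19 to 0.27), and not every library correlated best with its own number, so the replicate block rests on numbers alone; with it the number of called genes went to 0 (LSK), 325 (GMP) and 31 (CFU-E). The number of called genes ranged over alternatives from 0 to 342 in LSK, 38 to 1264 in GMP, 22 to 333 in CFU-E and 39 to 391 over all libraries. GMP libraries were the shallowest, from 1250683 counts, and thinning all of them to that total left Stag2 at -0.49 (adjusted p = 0.374, against 0.36 unthinned).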
